A study of Mus musculus with 12 samples.

Results

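The genes described here encode subunits of RNA polymerase I (Polr1a, Polr1b, Polr1c, Polr1d and Polr1e), the initiation factors Rrn3 and Ubtf, and the abundant nucleolar proteins nucleolin (Ncl), nucleophosmin (Npm1) and fibrillarin (Fbl). They were found by symbol in the table of counts. All 10 have a row, each symbol occurs once, and they make up 10 of the 13780 genes in the table, of which 13767 passed the filter on low counts (all 10 included). RNA-seq was done on 12 libraries of CD8+ T cells, 4 per group, from spleens of C57BL/6J mice 8 to 12 weeks old. Naïve cells were frozen right after magnetic isolation. Activated cells were kept for 72 h with beads carrying anti-CD3 and anti-CD28 antibodies and with 10 U/ml of IL-2, either in plain media or with 40 mM sodium lactate (NaLac) added. All groups share the genotype and the isolation. The media cultures received no sodium salt in place of lactate in this series, so lactate and the added sodium or osmolarity cannot be told apart. The activated libraries come from 5 donors, of which 3 gave both a media and a NaLac library, and the libraries are bulk samples, in which fewer cells of a type and less RNA per cell cannot be told apart.

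RNA polymerase I transcribes a single kind of gene, the repeated ribosomal DNA in the nucleolus, into the precursor of the large ribosomal RNAs. UBF (Ubtf) binds and keeps open the active ribosomal DNA repeats, and TIF-IA (Rrn3) bridges the polymerase to the promoter and is a well known target of growth factor and nutrient signalling. Nucleolin, nucleophosmin and fibrillarin act on the transcript afterwards, in processing, assembly and 2′-O-methylation. T cells that leave quiescence are known to enlarge their nucleoli and to make ribosomes before they divide. The mRNA levels reported here measure the machinery, not ribosomal RNA itself, which was not measured.

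Total counts per library were between 14726904 and 21478137. The CD8+ T cell markers Cd8a, Cd8b1, Cd3e, Cd3d and Trac were present in every library, at a summed level of 1776 to 3566 CPM (counts scaled to a common library size with TMM factors) in naïve, 2608 to 3230 in media and 2032 to 2517 in NaLac libraries. The 9 markers of other cells summed here (B cell Cd79a and Ms4a1, Cd4, myeloid Lyz2 and Csf1r, dendritic Xcr1, Clec9a and Siglech, and NK cell Ncr1; the red cell marker Hbb-bs is not analysed here) came to 599 to 1462 CPM in the naïve libraries, against 1.90 to 3.60 in media and 1.08 to 1.59 in NaLac. In the naïve libraries all 9 were above 0 in every library. This moves with every comparison against naïve cells below, and its part in them was not tested. In media and NaLac cultures Xcr1 and Siglech were at 0 in all libraries. By library number the samples fall into a low series (8 libraries) and a high series (4 libraries).

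All 10 genes are protein coding, and positions are those of GENCODE release M21 on GRCm38. Polr1a lies on chromosome 6 from 71909053 to 71984935 on the plus strand, Polr1b on chromosome 2 from 129100995 to 129126594 (plus) and Polr1e on chromosome 4 from 45018583 to 45036565 (plus). Polr1c lies on chromosome 17 from 46243920 to 46248054 (minus) and Polr1d on chromosome 5 from 147077050 to 147111597 (plus). Rrn3 lies on chromosome 16 from 13780708 to 13814839 (plus) and Ubtf on chromosome 11 from 102304560 to 102319742 (minus). Ncl lies on chromosome 1 from 86344719 to 86359400 (minus), Npm1 on chromosome 11 from 33152287 to 33163206 (minus) and Fbl on chromosome 7 from 28169710 to 28179269 (plus). The genes sit on 9 different chromosomes, and Ubtf and Npm1 share one. Exons of other genes cover 2.12% of the exonic bases of Ncl on the same strand, where small RNA genes lie within it, and 1.56% of those of Polr1a on the opposite strand. For the other 8 genes no exon overlap was found. Near-identical stretches elsewhere in the transcriptome (at least 95% identity over at least 71 bp, the read length) were found for Npm1 in 5 genes, the longest of 876 bp, and for Polr1b in 102 genes, none longer than 193 bp. Counts of the 5 genes with an Npm1 copy came to 2.10% of those of Npm1. Of the 102 genes that share a stretch with Polr1b, 65 are in the table, and their whole-gene counts came to 734475 against 11014 for Polr1b over all libraries. Ncl, Polr1d and Fbl had stretches of at most 84, 281 and 79 bp. The gene in the table that shares the Fbl stretch (Tulp4) had 35.2% of the counts of Fbl, and that for Ncl (Mfap1a) 1.27%. The share of counts that came from these stretches was not tested, and Polr1b is the most uncertain of the 10 in this respect. The other 5 genes had none.

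Promoter windows (the 250 bases before a start site, RefSeq on GRCm38.p6) could be matched for 8 of the 10 genes, 13 windows in all with 6 of them for Ubtf. The windows of Npm1 and Fbl were not in the table used. The sequences shown are those of Polr1b and Polr1e, which had the largest fold changes under NaLac among the 5 Polr1 genes described here, and of Rrn3, which alone among the genes with a window held the canonical E-box CACGTG. Capitals mark the E-box in Rrn3 and the GC box GGGCGG (either strand) in the others.
Rrn3, chr16:13780449-13780698, plus strand: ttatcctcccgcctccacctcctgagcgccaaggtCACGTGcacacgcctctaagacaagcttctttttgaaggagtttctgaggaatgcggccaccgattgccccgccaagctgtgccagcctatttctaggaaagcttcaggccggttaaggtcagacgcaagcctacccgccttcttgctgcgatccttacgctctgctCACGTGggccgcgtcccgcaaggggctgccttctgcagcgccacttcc
Polr1b, chr2:129100746-129100995, plus strand: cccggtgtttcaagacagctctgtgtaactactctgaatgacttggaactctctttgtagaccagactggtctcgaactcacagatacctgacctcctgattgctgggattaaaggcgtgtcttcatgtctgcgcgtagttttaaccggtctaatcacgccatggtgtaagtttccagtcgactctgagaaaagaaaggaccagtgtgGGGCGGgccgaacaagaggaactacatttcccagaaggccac
Polr1e, chr4:45018359-45018608, plus strand: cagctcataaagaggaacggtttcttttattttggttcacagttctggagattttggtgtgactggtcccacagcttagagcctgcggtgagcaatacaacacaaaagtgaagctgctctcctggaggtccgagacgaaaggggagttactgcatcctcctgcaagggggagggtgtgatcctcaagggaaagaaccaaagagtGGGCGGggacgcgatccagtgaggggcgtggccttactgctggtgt
The letters CACGTG read the same on both strands. In Rrn3 they begin 215 and 48 bases before the start site, and 6.02% of all 32851 promoter windows of this length hold at least 1 such match. GGGCGG or its complement occurred in 9 of the 13 windows, 5 of them among the 6 of Ubtf. Of all windows 32.7% hold it. By gene it occurred in 5 of the 8 (Ncl, Polr1b, Polr1c, Polr1e and Ubtf), and the share over all genes was not computed. The ETS core CCGGAA occurred in 1 of the 13, that of Polr1c, and 12.0% of all windows hold it. Matches of letters are given as a description, and no binding was measured.

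Most of these genes were higher in cells activated with NaLac than in cells activated in media. Of the 10, 8 passed the threshold upward (adjusted p of at most 0.01, edgeR quasi-likelihood test, Benjamini-Hochberg over all 13767 genes) and 0 downward, where 13.9% of all tested genes were higher and 11.1% lower. All 10 had a positive log2 fold change, with a median of 0.77 against 0.00 over all tested genes. The 4 NaLac libraries lay above the 4 media libraries for all 10 genes under TMM, where groups do not overlap for 44.7% of all genes. With DESeq2 size factors, upper quartile scaling or total counts in place of TMM, 9, 8 and 9 of the 10 did not overlap. The share of all genes was not computed under these scalings, so these counts have no background beside them. For each non-overlapping gene the two-sided exact permutation test gave p = 0.0286, the smallest that 4 against 4 samples allow. That test treats the libraries as independent and does not use the donors that gave both cultures. Together the 10 genes took 0.365 to 0.408% of the counts of a media library and 0.495 to 0.522% of those of a NaLac library, most of it from Ncl and Npm1.

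**Figure D1:**
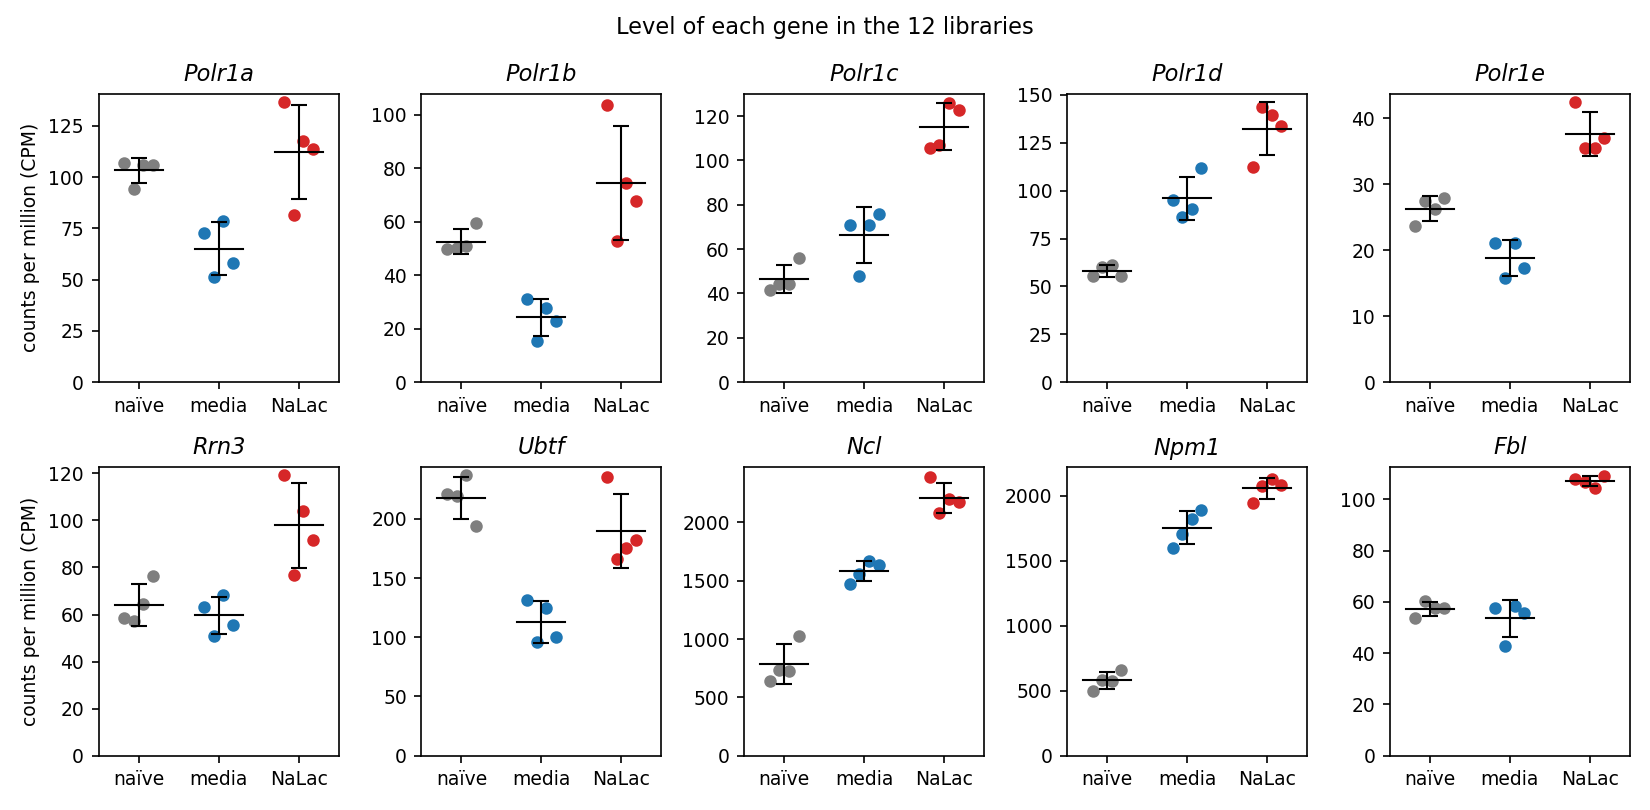
Level of each gene in the 12 libraries, in TMM-scaled CPM on linear axes that start at 0. Points are libraries (4 naïve, 4 media, 4 NaLac), horizontal bars are means and error bars are 1 SD. In every panel the NaLac points lie above the media points, closest for Polr1d, Npm1 and Polr1a and farthest, relative to the media level, for Fbl, Polr1b and Polr1e.

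Polr1a and Polr1b encode the large subunits that form the catalytic centre. Polr1b changed most. It was at 31.2, 15.3, 27.7 and 22.8 CPM in the 4 media libraries and at 103, 52.6, 74.4 and 67.6 CPM in the 4 NaLac libraries. The lowest NaLac library thus exceeded the highest media library, and both groups were wide, with coefficients of variation of 28.3% and 28.6%. The log2 fold change was 1.62 (SE 0.23, adjusted p = 0.000231 by edgeR), or 3.07-fold. Polr1a was at 72.8, 51.2, 78.7 and 58.1 CPM in media and at 137, 81.4, 118 and 114 CPM in NaLac. Here the groups came close, since NaLac 2 stood only slightly above media 3. The log2 fold change was 0.78 (SE 0.16, adjusted p = 0.00242 by edgeR). With the donor as a block it was 0.66 with an adjusted p of 0.0153, above the threshold of 0.01.

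Polr1e encodes the mouse counterpart of the PAF53 subunit, which is specific to RNA polymerase I. Its level was low but even, at 21.1, 15.7, 21.0 and 17.3 CPM in media and at 42.4, 35.5, 35.4 and 37.0 CPM in NaLac. No NaLac library came near the media range. The log2 fold change was 1.00 (SE 0.12, adjusted p = 0.000116 by edgeR), and under 25 alternative settings it stayed between 0.92 and 1.06.

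Polr1c and Polr1d encode a pair of subunits that RNA polymerase I shares with RNA polymerase III. Polr1c was at 71.02, 48.0, 70.7 and 76.0 CPM in media and at 105, 107, 126 and 123 CPM in NaLac, a log2 fold change of 0.80 (SE 0.14, adjusted p = 0.00108 by edgeR). Polr1d was at 94.9, 86.5, 90.5 and 112 CPM in media and at 113, 144, 139 and 134 CPM in NaLac. NaLac 1 and media 4 were nearly equal for Polr1d, and the log2 fold change was 0.46 (SE 0.10, adjusted p = 0.00375 by edgeR). This call was lost when any of media 1, 2 or 3 or NaLac 2, 3 or 4 was left out (adjusted p between 0.0111 and 0.0170) and with the donor as a block (adjusted p = 0.0186), while the direction stayed.

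Rrn3 and Ubtf serve initiation. Rrn3 was at 63.2, 51.0, 68.5 and 55.7 CPM in media and at 119, 76.8, 104 and 91.7 CPM in NaLac, a log2 fold change of 0.72 (SE 0.15, adjusted p = 0.00235 by edgeR). As for Polr1a and Polr1b, NaLac 1 was the highest and NaLac 2 the lowest of its group. Ubtf was at 132, 95.8, 124 and 99.9 CPM in media and at 235, 166, 175 and 182 CPM in NaLac, a log2 fold change of 0.75 (SE 0.13, adjusted p = 0.00107 by edgeR). NaLac 1 and NaLac 2 again marked the top and the bottom.

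Among the nucleolar proteins, fibrillarin, the methyltransferase of box C/D small nucleolar ribonucleoproteins, stood apart from the abundant pair Ncl and Npm1. Fbl was at 57.5, 42.8, 58.2 and 55.6 CPM in media and at 108, 107, 104 and 109 CPM in NaLac. The NaLac libraries varied by 1.98% (coefficient of variation), less than for any other of the 10 genes in any group. The log2 fold change was 1.00 (SE 0.10, adjusted p = 5.56e-05 by edgeR), or 2.00-fold. Ncl was at 1468, 1560, 1666 and 1633 CPM in media and at 2386, 2079, 2203 and 2175 CPM in NaLac. The groups were well apart, but the log2 fold change of 0.48 (SE 0.13) had an adjusted p of 0.0102, just over the threshold in edgeR. It was under the threshold with 10 of the 24 other ways of fitting tried at 0.01. Among them were the donor block (adjusted p = 0.00519), DESeq2 (adjusted p = 0.00463) and media and NaLac fitted alone in edgeR (adjusted p = 0.000918). So were the fits without naïve 1, naïve 3 or naïve 4 (adjusted p of 0.00832, 0.00977 and 0.000438). The coefficient of variation of Ncl was 21.6% in naïve, 5.57% in media and 5.82% in NaLac libraries, and its part in the main fit was not tested. Npm1 was at 1600, 1709, 1817 and 1890 CPM in media and at 1943, 2074, 2131 and 2086 CPM in NaLac. Its log2 fold change of 0.23 (SE 0.09, adjusted p = 0.0714 by edgeR) did not pass, and media 4 came close to NaLac 1.

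The log2 difference between NaLac and media of the same donor was positive in 3 of 3 donors for all 10 genes. The share of all tested genes with the same sign in 3 of 3 donors was not computed, so this count has no background. In the order of donors WT1 and WT3 of the low series and WT2 of the high series it was 1.73, 0.92 and 1.56 for Polr1b, and for Fbl it was 0.91, 0.87 and 0.98. Polr1a gave 0.91, 0.05 and 0.97, and Rrn3 0.92, 0.17 and 0.72, so that for both genes the second of these donors (media 3 and NaLac 2) showed a far smaller difference than the others. For Polr1d that donor showed the largest difference, 0.67 against 0.25 and 0.26. A test of whether the NaLac effect differed between the low and the high series of library numbers (edgeR interaction term) called 0 of the 10 genes, each with an adjusted p of 1, and 0 had an unadjusted p under 0.05. It rests on 1 media library in the high series, beside 2 NaLac libraries there and 3 media and 2 NaLac libraries in the low series, and does not show that the effects were alike. The log2 difference in the low and in the high series was 1.64 and 1.63 for Polr1b, 1.02 and 1.06 for Polr1e, and 0.67 and 0.99 for Polr1a.

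**Figure D2:**
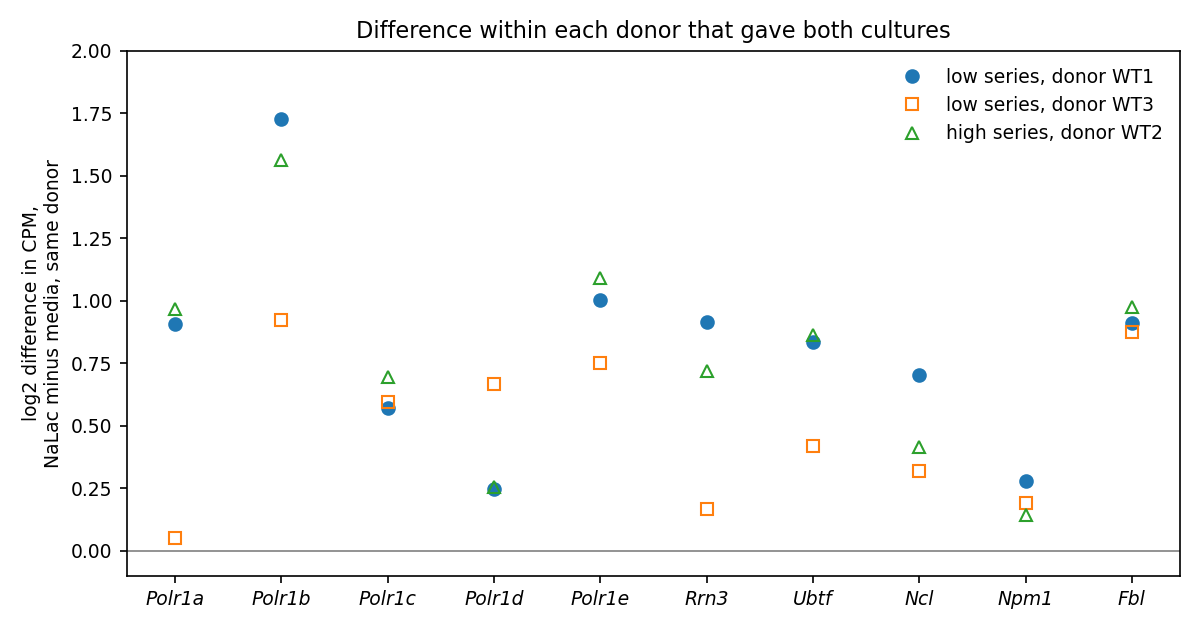
Log2 difference in CPM between the NaLac and the media library of the same donor, for each gene. Each symbol is 1 of the 3 donors that gave both libraries, with donor names as in the labels, which restart between the 2 series of library numbers. All 30 points are above 0, and the donor WT3 of the low series lies lowest for Polr1a, Polr1b, Polr1e, Rrn3, Ubtf, Ncl and Fbl.

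Activation in plain media split the genes. Against naïve cells, 4 of the 10 were higher in media and 4 were lower, where 28.5% of all tested genes were higher and 29.0% lower, so that the number called in each direction is not far from that of genes at large. The median log2 fold change was -0.10, against -0.03 over all tested genes. Lower were the catalytic subunits, Polr1e and Ubtf, and higher were the shared subunits, Ncl and Npm1. In the 4 naïve libraries Polr1a was at 107, 94.1, 106 and 106 CPM and Polr1b at 49.9, 50.0, 50.7 and 59.4 CPM, above every media library. Polr1b fell by 1.11 on the log2 scale (SE 0.22, adjusted p = 0.000711 by edgeR) and Polr1a by 0.66 (SE 0.16, adjusted p = 0.00278).

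Ubtf was at 221, 219, 237 and 194 CPM in naïve cells and was 1.93-fold lower in media (log2 fold change -0.95, SE 0.14, adjusted p = 4.73e-05 by edgeR). Polr1e was at 23.6, 27.4, 26.2 and 27.9 CPM in naïve cells and fell by 0.48 on the log2 scale (SE 0.12, adjusted p = 0.00325 by edgeR), a call that was lost when the naïve and media libraries were fitted alone (adjusted p = 0.0112). For both genes the naïve and media samples did not overlap.

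The nucleolar proteins Ncl and Npm1 rose with activation. Npm1 was at 501, 583, 573 and 661 CPM in naïve cells and was 3.03-fold higher in media (log2 fold change 1.60, SE 0.10, adjusted p = 3.65e-08 by edgeR). Ncl was at 643, 738, 724 and 1030 CPM in naïve cells and was 2.02-fold higher in media (log2 fold change 1.01, SE 0.13, adjusted p = 1.84e-05 by edgeR). Naïve 4, which had the highest Ncl and Npm1 of its group, also had the lowest summed CD8+ T cell markers and is the only naïve library of the high series. Its part in these levels was not tested. Polr1d, at 55.5, 60.0, 61.0 and 55.2 CPM in naïve cells, rose by 0.73 on the log2 scale (SE 0.10, adjusted p = 4.77e-05 by edgeR).

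Polr1c, at 41.6, 44.2, 44.5 and 55.8 CPM in naïve cells, was higher in media by 0.51 (SE 0.14, adjusted p = 0.00672 by edgeR), but media 2 lay within the naïve range, the exact permutation p was 0.0571, and the call was lost in 11 of 24 alternatives (adjusted p up to 0.0485). In 8 of these 1 library was left out, which was naïve 1, 2 or 3, media 1, 3 or 4, or NaLac 3 or 4. Rrn3, at 58.3, 57.3, 64.4 and 76.5 CPM in naïve cells, and Fbl, at 53.9, 60.3, 57.4 and 57.6 CPM, overlapped with media and did not pass (log2 fold change -0.11, SE 0.15, and -0.10, SE 0.10, with adjusted p of 0.540 and 0.391 by edgeR).

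Cells activated with NaLac differed from naïve cells in yet another way. In that comparison 7 of the 10 genes were higher and 0 were lower, where 33.0% of all tested genes were higher and 32.0% lower, and the median log2 fold change was 0.76 against 0.01 over all tested genes. Npm1 was 3.55-fold higher (log2 fold change 1.83, SE 0.10, adjusted p = 1.17e-08 by edgeR), Ncl 2.82-fold (SE 0.13 on the log2 scale, adjusted p = 5.22e-07), Polr1c 2.48-fold (1.31, SE 0.15, adjusted p = 4.12e-06) and Polr1d 2.28-fold (1.19, SE 0.10, adjusted p = 5.47e-07). Fbl, which had not passed in media against naïve cells, was 1.87-fold higher (0.90, SE 0.10, adjusted p = 3.41e-06). Rrn3 was higher by 0.61 on the log2 scale (SE 0.15, adjusted p = 0.00222) and Polr1e by 0.52 (SE 0.12, adjusted p = 0.00173). The Rrn3 call was lost without naïve 1, naïve 2 or NaLac 3 (adjusted p of 0.0178, 0.0171 and 0.0157), and that of Polr1e without naïve 1 or NaLac 4 (adjusted p of 0.0191 and 0.0120).

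The remaining genes did not pass against naïve cells. Polr1a in NaLac (81.4 to 137 CPM) overlapped with naïve (94.1 to 107 CPM), with a log2 fold change of 0.12 (SE 0.16, adjusted p = 0.511 by edgeR). Ubtf in NaLac (166 to 235 CPM) overlapped with naïve (194 to 237 CPM), with a log2 fold change of -0.20 (SE 0.13, adjusted p = 0.195). Polr1b had a log2 fold change of 0.51 (SE 0.22, adjusted p = 0.0527), and only NaLac 2 lay within the naïve range. Each comparison shares a group of libraries with each of the others, so the values of a gene in the 3 comparisons are not independent.

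**Figure D3:**
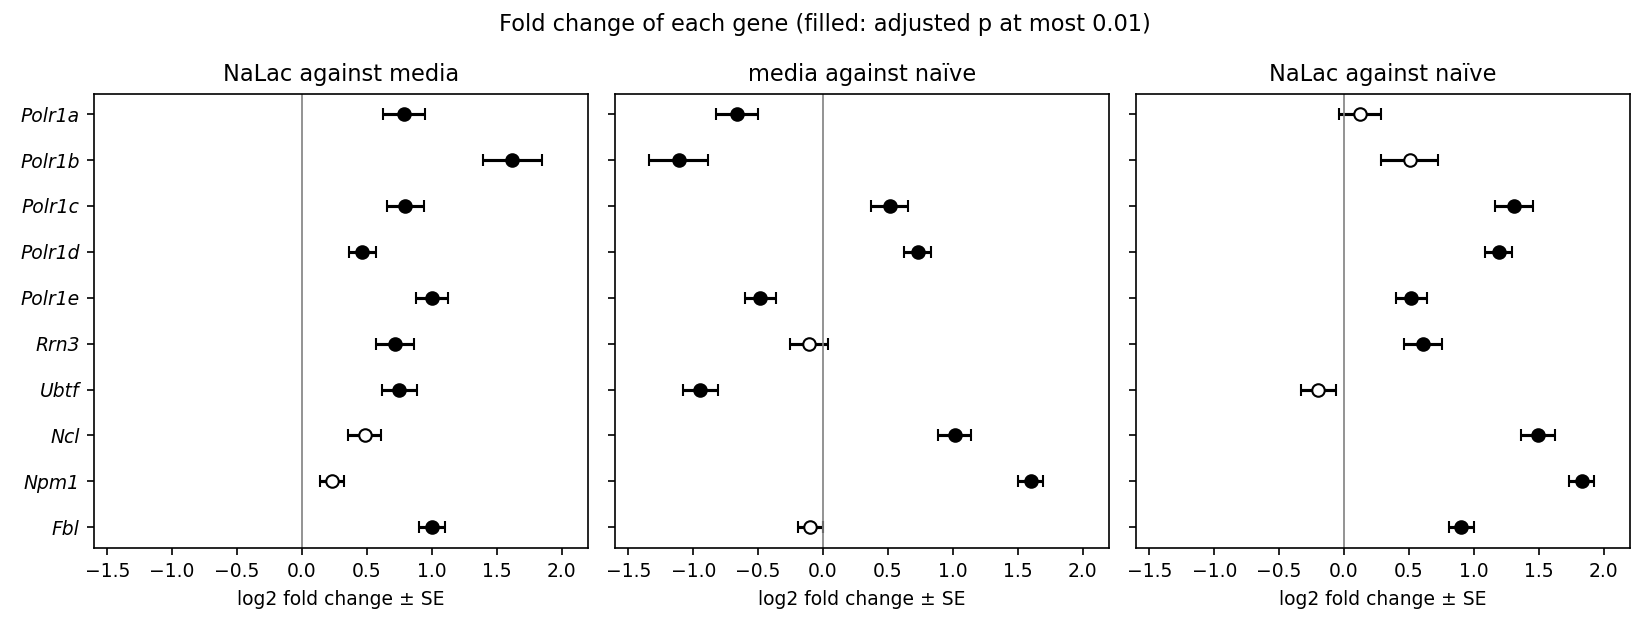
Log2 fold change of each gene in the 3 comparisons, with bars of 1 SE from the edgeR model. Filled points have an adjusted p of at most 0.01. In the left panel all 10 points are above 0 and 8 are filled, in the middle panel 4 filled points lie on each side, and in the right panel the 7 filled points are above 0.

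Levels can be set side by side between genes only per length, as TPM (counts divided by the gene lengths in the table and scaled to the same sum in every library). On that scale Npm1 was the highest of the 10 in each group, with 743 ± 102 TPM in naïve, 2279 ± 117 in media and 2435 ± 57.0 in NaLac (mean ± SD, n = 4), and Ncl came second with 264 ± 65.6, 538 ± 27.0 and 685 ± 60.7 TPM. The length of Ncl in the table, 10188 bp, takes in all exons of every annotated transcript in a gene that spans 14682 bp, which sets its TPM low beside the compact Npm1 (2665 bp). After these the order changed. Ubtf came next in naïve cells (113 ± 7.55 TPM), apart from its neighbours, but stood below Polr1c and Polr1d in media (59.9 ± 10.7) and in NaLac (91.6 ± 18.3). The shared subunits Polr1c and Polr1d, whose ranges overlapped in each group, were at 69.9 and 64.9 TPM in naïve cells, 101 and 109 TPM in media and 159 and 137 TPM in NaLac. Rrn3 and Fbl also overlapped in each group, at 50.9 and 46.4 TPM in naïve, 47.9 and 44.1 in media and 71.7 and 80.4 in NaLac.

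The lowest places belonged to Polr1a, Polr1b and Polr1e in each group. They had 29.7, 30.9 and 23.0 TPM in naïve cells, 19.1, 14.5 and 16.7 in media and 29.9, 40.7 and 30.5 in NaLac. In naïve cells Polr1e lay apart from Polr1a, and in both activated groups neighbours among these genes overlapped.

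Ratios of TPM within a library do not depend on the scaling between libraries. The ratios given here were chosen after the values were seen and carry no test. Polr1a over Polr1b was 0.874 to 1.05 in naïve, 1.14 to 1.63 in media and 0.645 to 0.823 in NaLac libraries, 3 ranges that do not overlap. Polr1c over Polr1a was 2.03 to 2.74 in naïve, against 4.68 to 6.81 in media and 4.02 to 6.84 in NaLac, so that both activated groups overlapped and lay above naïve cells. Polr1d over Polr1a ran likewise, at 2.02 to 2.48, 4.49 to 7.51 and 3.21 to 6.89. Npm1 over Ncl was 2.45 to 3.02 in naïve, 4.17 to 4.42 in media and 3.11 to 3.81 in NaLac, again without overlap.

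**Figure D4:**
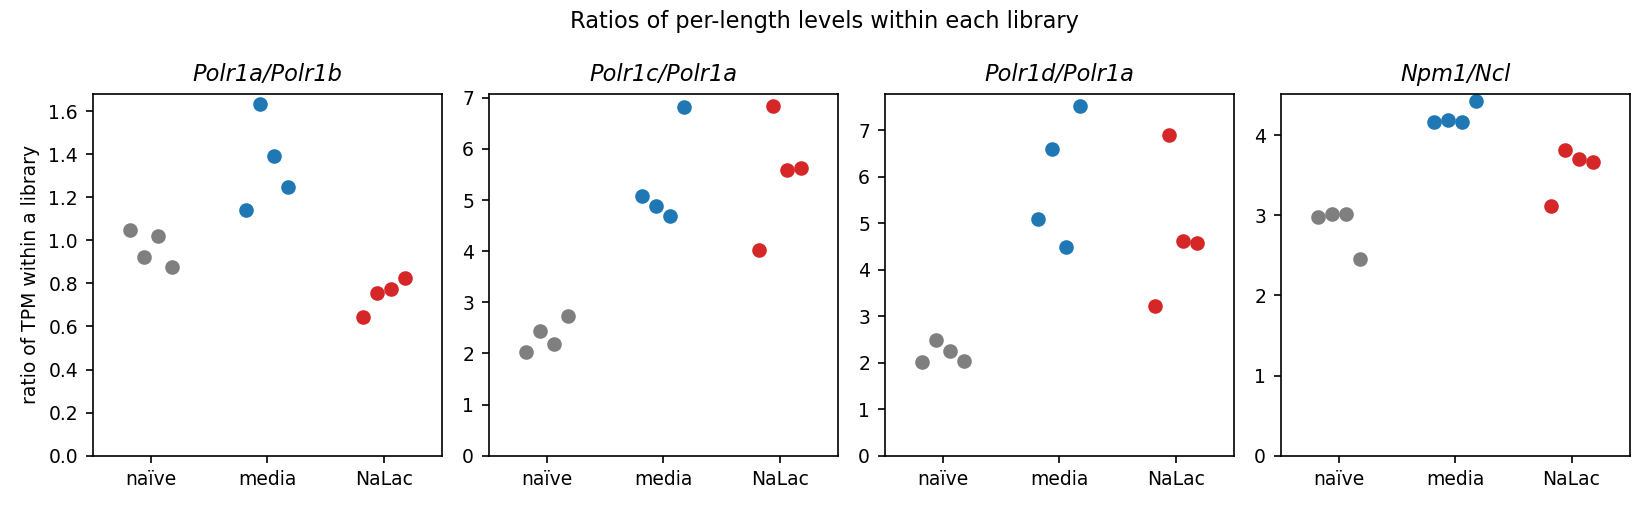
Ratios of per-length levels (TPM) of pairs of genes within each library, on linear axes from 0, with 1 point per library and 4 libraries per group. Polr1a over Polr1b and Npm1 over Ncl form 3 separate ranges, while Polr1c and Polr1d over Polr1a separate naïve from activated libraries but not media from NaLac.

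The other genes of the pathway were taken as 4 lists, of 38 genes with 37 tested (Snu13 is not analysed here). Of the 8 other subunits of RNA polymerase I, 7 were higher under NaLac than in media and 0 lower, with a median log2 fold change of 0.73. Over all tested genes 13.9% were higher and 11.1% lower. Those higher include Polr2e, Polr2f, Polr2h, Polr2k and Polr2l, which are common to the 3 nuclear polymerases and so are not particular to polymerase I. Of Polr1f, Polr1g and Polr1h, the first 2 were higher and Polr1h was not. Polr2l (1.57, SE 0.35, adjusted p = 0.00356 by edgeR), a small subunit common to the 3 nuclear polymerases that was at only 1.22 CPM in media, and Polr2f (1.05, SE 0.14, adjusted p = 0.000148), also common to them, had the highest fold changes. The lowest were Polr1h (-0.07, SE 0.11, adjusted p = 0.644) and Polr2h (0.51, SE 0.10, adjusted p = 0.00146). All 8 small nucleolar ribonucleoprotein partners and nucleolar chaperones tested were higher, with a median of 1.12. Nolc1, a chaperone of these particles, rose by 1.83 (SE 0.20, adjusted p = 8.01e-05) and Nop56, a core protein beside fibrillarin, by 1.48 (SE 0.16, adjusted p = 7.40e-05). The lowest of this list were Nop10 (0.81, SE 0.15, adjusted p = 0.00119) and Npm3 (0.83, SE 0.10, adjusted p = 0.000130).

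Of the 11 factors of the ribosomal DNA promoter and its chromatin, 2 were higher and 0 lower, with a median of 0.11; this is close to the background of 13.9%. Those higher were Mybbp1a (1.34, SE 0.19, adjusted p = 0.000277 by edgeR) and the helicase Ddx21 (1.23, SE 0.14, adjusted p = 9.06e-05). Baz2a, the large subunit of the nucleolar remodelling complex that silences ribosomal DNA repeats, had the lowest value (-0.50, SE 0.14, adjusted p = 0.0117), followed by the termination factor Ttf1 (-0.25, SE 0.09, adjusted p = 0.0333). Of the 10 subunits of RNA polymerase III, 3 were higher and 0 lower, with a median of 0.24. Polr3d (1.21, SE 0.18, adjusted p = 0.000287) and Polr3e (1.19, SE 0.15, adjusted p = 0.000146) led this list, and Polr3gl (-0.43, SE 0.20, adjusted p = 0.114) and Polr3k (-0.38, SE 0.13, adjusted p = 0.0364) came last. Over the 4 lists 20 genes were higher and 0 lower, and with the donor as a block 19 were higher and 0 lower. With DESeq2 size factors or total counts in place of TMM 18 were higher and 1 lower, and with upper quartile scaling 19 and 1.

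**Figure D5:**
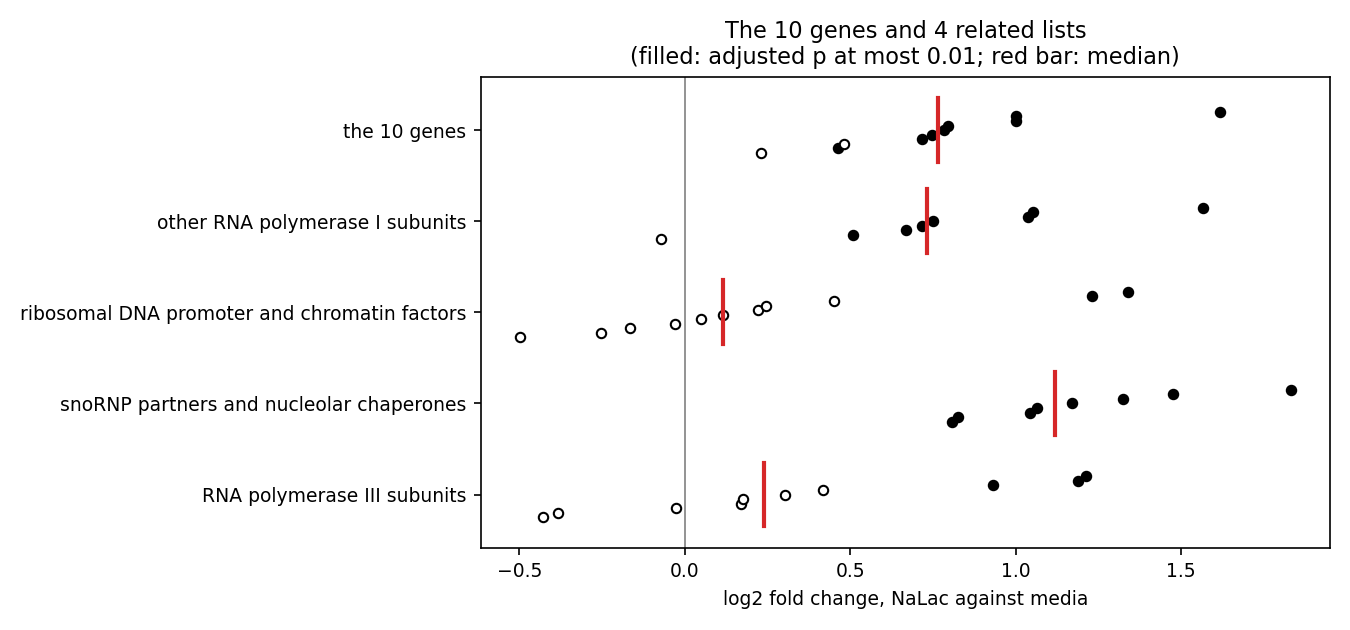
Log2 fold change of NaLac against media for the 10 genes and for 4 lists of related genes. Each point is a gene, filled where the adjusted p was at most 0.01, and red bars are medians. The small nucleolar ribonucleoprotein list is filled throughout, while most genes of the ribosomal DNA promoter list and of the RNA polymerase III list are open.

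Against naïve cells the same lists gave other counts. In media 1 polymerase I subunit was higher and 1 lower of 8 (median 0.08), 0 and 4 of the 11 promoter and chromatin factors (median -0.40), 1 and 0 of the 8 ribonucleoprotein genes (median 0.04), and 3 and 5 of the 10 polymerase III subunits (median -0.05). Under NaLac these counts were 5 and 0 (0.84), 3 and 5 (-0.04), 7 and 0 (1.31), and 4 and 1 (0.07). Over all tested genes 28.5% were higher and 29.0% lower in media, and 33.0% higher and 32.0% lower under NaLac. Several of the list counts, such as those of the polymerase III subunits higher in media, are near these shares. Among the genes named, Polr3d and Polr3e fell in media by 1.24 and 1.15 on the log2 scale (adjusted p = 4.73e-05 and 2.43e-05 by edgeR), and Polr3k rose by 1.88 (adjusted p = 1.67e-07).

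The 10 genes did not share 1 profile over the 12 libraries. Measured as the root mean square distance of mean-centred log2 CPM from the median profile of the 10, Fbl was closest to it (0.08), then Rrn3 (0.16) and Polr1e (0.18), and Npm1 was farthest (0.71). Among 6502 other genes of at least 30 CPM on average, those nearest to that median profile were Exosc2 (0.06), Klhdc4 (0.07), Mrpl3, Mak16 and Snrpb (0.08 each). Exosc2, a subunit of the RNA exosome, was at 35.5 ± 1.20 CPM in naïve, 32.0 ± 4.18 in media and 64.2 ± 4.17 in NaLac (mean ± SD, n = 4). Klhdc4 was at 45.4 ± 5.85, 44.9 ± 5.75 and 78.3 ± 3.66 CPM. Mak16, a factor of large ribosomal subunit assembly, was at 85.4 ± 5.94, 77.4 ± 7.49 and 140 ± 11.3 CPM. Mrpl3 of the mitochondrial ribosome was at 47.1 ± 1.83, 39.7 ± 4.97 and 76.5 ± 6.53 CPM, and Snrpb of the spliceosome at 153 ± 10.1, 145 ± 22.0 and 253 ± 19.4 CPM. All 5 were chosen for this likeness, so their levels are a description.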

How the data were processed

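RNA was sequenced from 12 libraries with a stranded mRNA kit. By the study's methods, the authors mapped reads to GRCm38 with STAR 2.7.5b (base calls converted with bcl2fastq 2.20.0.422), discarded PCR duplicates and used featureCounts to assign reads with a unique position to Ensembl exons. Whether counting used strand is not given in the sources used here. The deposited values are raw counts per gene, with a gene length.

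Groups, donors and library numbers came from the labels. Donor tags restart between the 2 series of library numbers and were read per series, which gives the 5 activated donors of the record. Here, a gene had to reach 1 CPM in at least 3 libraries (13 were dropped), counts were scaled by TMM, and 1 edgeR 4.0.16 quasi-likelihood model with 3 groups was fitted to all libraries (R 4.3.3), with two-sided tests, Benjamini-Hochberg adjustment and a threshold of 0.01. SE is the log2 fold change over the square root of F. The fit was first run on simulated data. CPM use TMM-scaled totals and TPM the table's lengths. Exact permutation tests used all 70 arrangements. Counts were 14726904 to 21478137 per library. How much of the spread between the 4 libraries of a group was counting error was not tested. Near-identical stretches were sought with BLASTN 2.17.0.

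Deviations from group means of the media and NaLac libraries of 1 donor correlated over genes at 0.374, 0.211 and 0.553. Media 2 and NaLac 2, which come from different donors, correlated at 0.297. Media 3 and NaLac 3, also from different donors, correlated at 0.0038. One of these lay above and the other below the 0.211 of 1 donor, so these values do not show that the donor pairs the samples. In the donor block, which was fitted without the naïve libraries, media 2 and NaLac 3 have no partner. Alternatives were DESeq2 1.42.0, limma 3.58.1 (voom), the likelihood ratio test, other scalings and filters, 2 groups alone, blocks, the library series, a threshold of 0.05 and each library left out. The genes and lists were chosen with earlier results of these data known. All 10 genes are named. Of each list the 2 highest and 2 lowest for NaLac against media are named, and the 5 genes nearest to the median profile. A marker of other cell types that was on the list is not reported here.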

Additional observations from a re-analysis of the deposited data

Results flagged for a closer look

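In 30 checks of a sample standing far from its group of 4, 2 were found, where such a rule gives about 1.5 by chance. Polr1a in naïve 2 was at 94.1 CPM while the other naïve libraries were at 106 to 107 CPM. Polr1b in naïve 4 was at 59.4 CPM while the others were at 49.9 to 50.7 CPM. Both values lay above all media libraries for the same gene.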

How the results depend on the processing

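The 30 fold changes (10 genes, 3 comparisons) were taken under 25 alternatives for NaLac against media and 24 for each comparison with naïve cells, 730 values in all. The threshold of 0.05 was applied to the main fit, so its fold changes could not reverse or lose a call. Fits without a library of the group not compared are counted too. None reversed, 694 stayed on the same side of the threshold, 25 lost a call and 11 gained one, and 23 of the 30 results kept their call under all alternatives tried for them. The lost calls were those of Polr1a, Polr1d, Polr1c, Polr1e and Rrn3 given with the results. The gained ones were all of Ncl against media, 1 of them only through the threshold of 0.05 on the main fit. The cause of the other changes was not tested. Leaving out 1 library gave 7 to 9 of the 10 genes called for NaLac against media, 7 to 8 for media against naïve and 5 to 7 for NaLac against naïve. Of all 13767 tested genes, these fits called 2260 to 4830, 7158 to 8469 and 8282 to 9434 in the same order. In both comparisons with naïve cells most tested genes were thus called. The donor block was fitted to the activated libraries without the naïve ones. It left 7 of the 10 called for NaLac against media (Polr1a and Polr1d lost, Ncl gained), beside 3769 of all tested genes. Without a block, those libraries alone gave 9 called, with Polr1a and Polr1d kept and Ncl gained (adjusted p = 0.000918 by edgeR). Over all tested genes that fit called 4590. With the title number as a block 8, 8 and 7 were called in the 3 comparisons, beside 3256, 7806 and 8851 of all tested genes. Neither block fit changed another call among the 10. Of the pathway genes 19 were called with the donor block (20 without), and with the title block 20, 16 and 26 (20, 15 and 25 without). The title numbers do not all follow the donors (correlations of 0.374, 0.297, 0.0038 and 0.553). At an adjusted p of at most 0.05, 27 of the 37 pathway genes were called for media against naïve (12 higher, 15 lower) against 15 at 0.01. Of all 13767 tested genes 9387 were called at 0.05 and 7915 at 0.01. Other scalings moved the median log2 fold change of all genes for NaLac against media from 0.00 to between -0.04 and -0.03.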
